A study of Mus musculus with 8 samples.

Results

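The matrix metalloproteinases (Mmp), their tissue inhibitors (Timp), the ADAMTS proteases (Adamts) and the ADAMTS-like proteins (Adamtsl) were followed in the livers of mice with steatohepatitis. Members were taken by name from the symbols of the count files, as Mmp, Timp 1 to 4, Adamts or Adamtsl followed by a number. This gave 51 of 25239 symbols, of which 23 were Mmp, 4 Timp, 19 Adamts and 5 Adamtsl genes.

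Bulk RNA-Seq was available for livers of 4 control and 4 Smo-KO mice. All were adult males of the C57Bl6/J strain with both Smo alleles floxed (Smo fl/fl), fed for 6 weeks a choline-deficient, amino acid–defined high-fat diet (CDA-HFD) that induces steatohepatitis, and all received an AAV8 vector (an adeno-associated virus) for their last week. Its TBG promoter drives expression in hepatocytes. Control mice received AAV8-TBG-Luciferase, so that both floxed alleles stayed in place (the labels call their genotype WT). Smo-KO mice received AAV8-TBG-Cre Recombinase, which is meant to delete Smo in hepatocytes and leaves it in other liver cells. Smoothened (Smo) is the membrane protein that passes the Hedgehog signal into the cell. No chow-fed liver was part of the comparison, so a change that the diet itself makes could not be seen. The study gives an age for chow-fed mice of this line, and the age of the mice on CDA-HFD and whether the groups shared cages or litters were not given in the sources used here.

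Mmp and ADAMTS enzymes are secreted or membrane-bound zinc proteases that cut collagens, proteoglycans and other matrix proteins. Most are made as inactive precursors and need a cut, often by furin or plasmin, to become active. Timp proteins block the active site of Mmp enzymes, and Timp3 also blocks ADAMTS enzymes. ADAMTS-like proteins resemble the ADAMTS tail but lack the protease part, and several bind the fibrillin microfibrils of the matrix. In fibrosing liver, stellate cells and macrophages are the best known sources of these transcripts, and Timp1 is a common marker of fibrogenesis. A transcript level says nothing of how much enzyme is active.

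Between 9177277 and 9999732 reads were counted on genes in control livers and between 8203299 and 9543675 in Smo-KO livers, which did not differ beyond the spread between mice (two-sided p = 0.257 by exact permutation, n = 4 livers each). Levels are given as CPM, counts per 1e+06 reads after scaling each library by TMM. A gene with 3 reads had between 0.297 and 0.366 CPM, depending on the liver. Reads came from whole liver, so fewer cells of a type and less RNA per cell cannot be told apart. The tissue label matched its markers, since 8 hepatocyte genes, Alb foremost, summed to 29792 ± 2607 CPM in control and 29490 ± 699 CPM in Smo-KO livers (SD, n = 4 each). The targeted gene was checked first. Smo stood at 8.17, 8.49, 8.74 and 8.21 CPM in control livers 1 to 4 and at 5.67, 3.93, 4.27 and 4.37 CPM in Smo-KO livers 1 to 4. Every Smo-KO liver lay below every control liver, and Smo-KO mouse 1 lay nearest to them. The log2 fold change of Smo was -0.88 (standard error 0.16), from 35 to 55 reads per Smo-KO liver.

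Of the 51 members, 32 had enough reads to be tested (13 Mmp, 3 Timp, 12 Adamts and 4 Adamtsl genes). No read was found in any liver for 8 members, which were Mmp3, Mmp10, Mmp20, Mmp21, Mmp1a, Adamts18, Adamts19 and Adamts20. For these, a count of 0 allows up to 3 reads per liver. The other 11 had between 1 and 73 reads over all 8 livers. They were Mmp1b, Mmp8, Mmp16, Mmp25, Mmp28, Timp4, Adamts3, Adamts8, Adamts16, Adamts17 and Adamtsl3. Mmp8, the neutrophil collagenase, had 57 reads in all, and Adamts3, a procollagen protease, had 73.

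A run of 10 Mmp genes lies side by side on chromosome 9, in a block of 427 kb (GRCm38, GENCODE M21, chr9:7272514-7699585), and their levels in these livers ranged from the top of the family to nothing. Mmp12, the elastase of macrophages, had 15653 reads over the 8 livers, while its neighbor Mmp13, the main interstitial collagenase of rodents, had 1113. Mmp27 had 411, Mmp7 (matrilysin) 102 and Mmp8 57. Mmp1b, which shares 157 exon bases with Mmp12 on the opposite strand, had 1 read, and Mmp1a, Mmp3, Mmp10 and Mmp20 had none. Several genes of this block are textbook targets of AP-1, the Fos and Jun factors, which bind the letters TGANTCA. This motif, which reads the same on both strands, was looked for in RefSeq windows (GRCm38.p6) from 250 bases before to 50 bases after each gene start, and 36 of the 51 members had such a window. Mmp19 and Adamts5 were among those without one and were not searched. It was found in 7.81% of the 32851 windows of all genes. Among members it was found in 8 genes, and all 8 belong to the 10 genes of this block. The sequences below show it, in capitals, with the surrounding bases for 3 genes with reads and for Mmp3, which had none. They are read 5′ to 3′ on the plus strand.
Mmp12, chr9:7347318-7347347: tgacatcaacagTGAGTCAgatagaggatt
Mmp13, chr9:7272467-7272496: accccaaagtggTGACTCAtcactatcatg
Mmp7, chr9:7692015-7692044: aaagtgtgcaaaTGAGTCAcctatttccac
Mmp3, chr9:7445764-7445793: tggaagcaattaTGAGTCAgttttcgggtg
The motif begins 44 bases before the start of Mmp12, 35 before Mmp13, 63 before Mmp7 and 46 before Mmp3. It was thus present alike in the most read and in an unread gene of the block. A match in letters is not evidence of binding.

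Because Smo acts through the Gli factors, the same windows were searched on both strands for the Gli motif GACCACCCA. The exact motif was in 0.253% of all windows and in none of the 39 windows of members. With up to 1 mismatch it was in 6.74% of all windows and in 4 members, Adamtsl4, Mmp14, Timp3 and Adamts20. The first of these differed most between the groups and is described below, Mmp14 and Timp3 had differences smaller than their standard error, and Adamts20 was not read. Here too a match in letters is not evidence of binding. Whether the motif bears on any of these differences was not tested. The matches, in capitals, are given for the 3 genes with reads on the strand of the gene, which is minus for Adamtsl4 and plus for the other two. In Adamtsl4 the letters are those of the motif's opposite strand.
Adamtsl4, chr3:95687938-95687969: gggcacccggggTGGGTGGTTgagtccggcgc
Mmp14, chr14:54431358-54431389: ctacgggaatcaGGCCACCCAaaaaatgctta
Timp3, chr10:86300319-86300350: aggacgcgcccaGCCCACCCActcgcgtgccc

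Per kilobase of exon, the scale on which genes can be compared with each other, membrane-type and macrophage Mmps led the whole group. Mmp15, a membrane-anchored protease, averaged 37.2 CPM per kb over the 8 livers. Mmp12 averaged 28.9 and Mmp14, the membrane protease that activates pro-Mmp2, 26.6 CPM per kb. These 3 made up 73.5% of the summed Mmp level on this scale. Next came Timp2 with 12.9, Timp1 with 12.8 and Mmp19 with 12.4 CPM per kb, followed by Mmp2 (gelatinase A) with 6.30, Timp3 with 5.77 and Mmp13 with 5.49. Among ADAMTS proteases the highest were Adamts13, which cuts von Willebrand factor, with 5.11, Adamts7 with 4.86 and Adamts1 with 3.46 CPM per kb. Adamts10 was about level with Adamts1, at 3.45 CPM per kb. By its group means it stood below Adamts1 in control livers and above it in Smo-KO livers. Adamtsl2 with 4.59 and Adamtsl4 with 2.85 led the ADAMTS-like genes. Mmp9 (gelatinase B), which is abundant in neutrophils, was at 0.339 CPM per kb. This order is of means over both groups. Mmp19 stood by its group means above both inhibitors in control livers and below both in Smo-KO livers, with no overlap with Timp2 within either group. Over all 8 livers, neighbors in this order overlapped, as for Mmp12 and Mmp14 or Timp1 and Timp2, except that the lowest Mmp14 value lay above the highest of Timp2 and the lowest Mmp19 value above the highest of Mmp2.

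**Figure D1:**
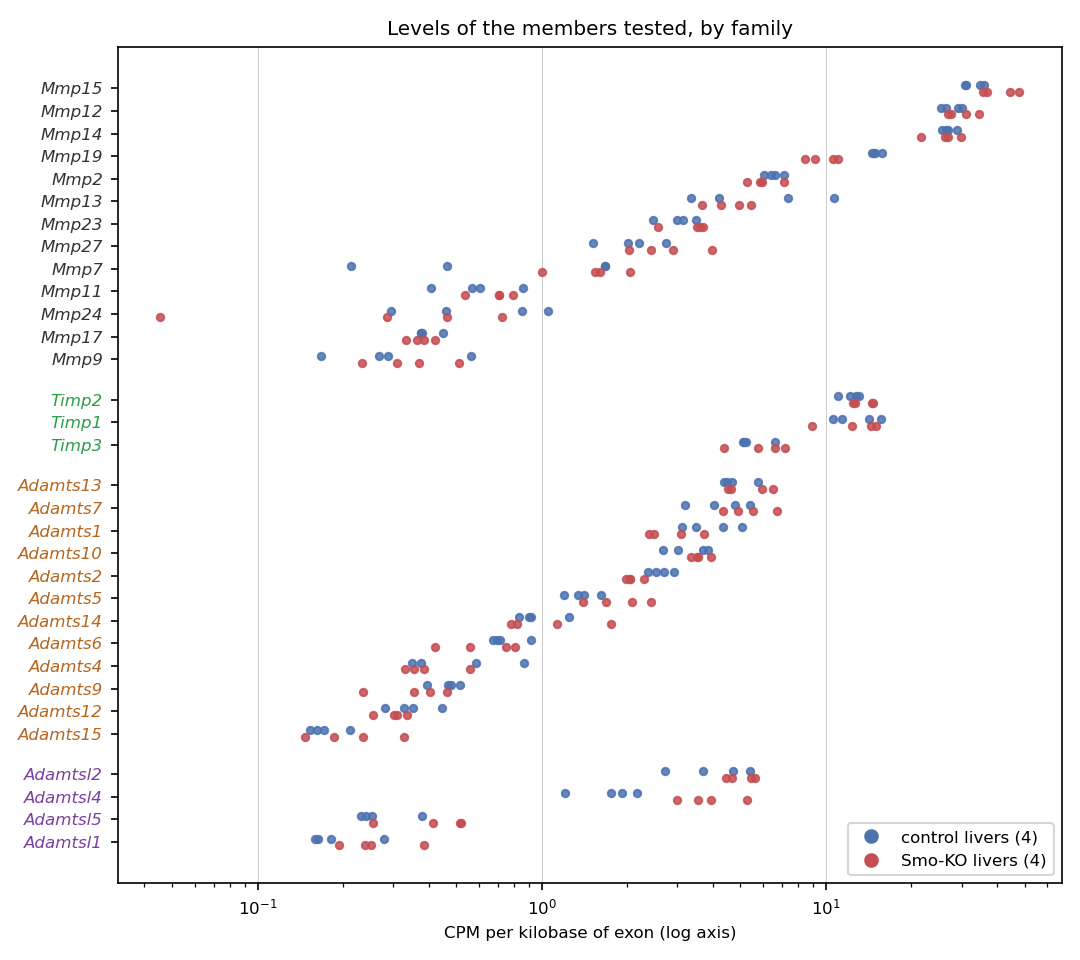
Level of each of the 32 members tested, in CPM per kilobase of exon on a log axis, with 1 point per liver (blue, 4 control livers; red, 4 Smo-KO livers) and gene names colored by family. The points of both groups overlap for most members, and they are separate for Mmp19, Adamts2 and Adamtsl4.

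Smo-KO livers were then compared with control livers, 4 mice against 4, by quasi-likelihood tests in edgeR on the 12977 genes with enough reads. No member had an adjusted p under 0.05, as no gene did (0.0% of all genes; lowest adjusted p 0.0785). At an unadjusted p under 0.05 stood 6 of the 32 members, 3 higher (Adamtsl4, Mmp15 and Adamts5) and 3 lower in Smo-KO livers (Mmp19, Adamts2 and Adamts1), against 13.8% of all genes (6.7% higher and 7.15% lower). This is 18.8% of the members tested, not far from the background. In 3 of the 32, Adamtsl4, Mmp19 and Adamts2, the values of the groups did not overlap (9.38%, against 7.37% of all genes, 3.03% with higher and 4.34% with lower Smo-KO values). The median log2 fold change of the 32 members was 0.13, beside 0.00 for all genes. With DESeq2 2 members had an adjusted p under 0.05, Adamtsl4 (higher) and Mmp19 (lower), of the 27 members to which it gave a value. Over all genes this share was 1.36% (0.66% higher and 0.702% lower).

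**Figure D2:**
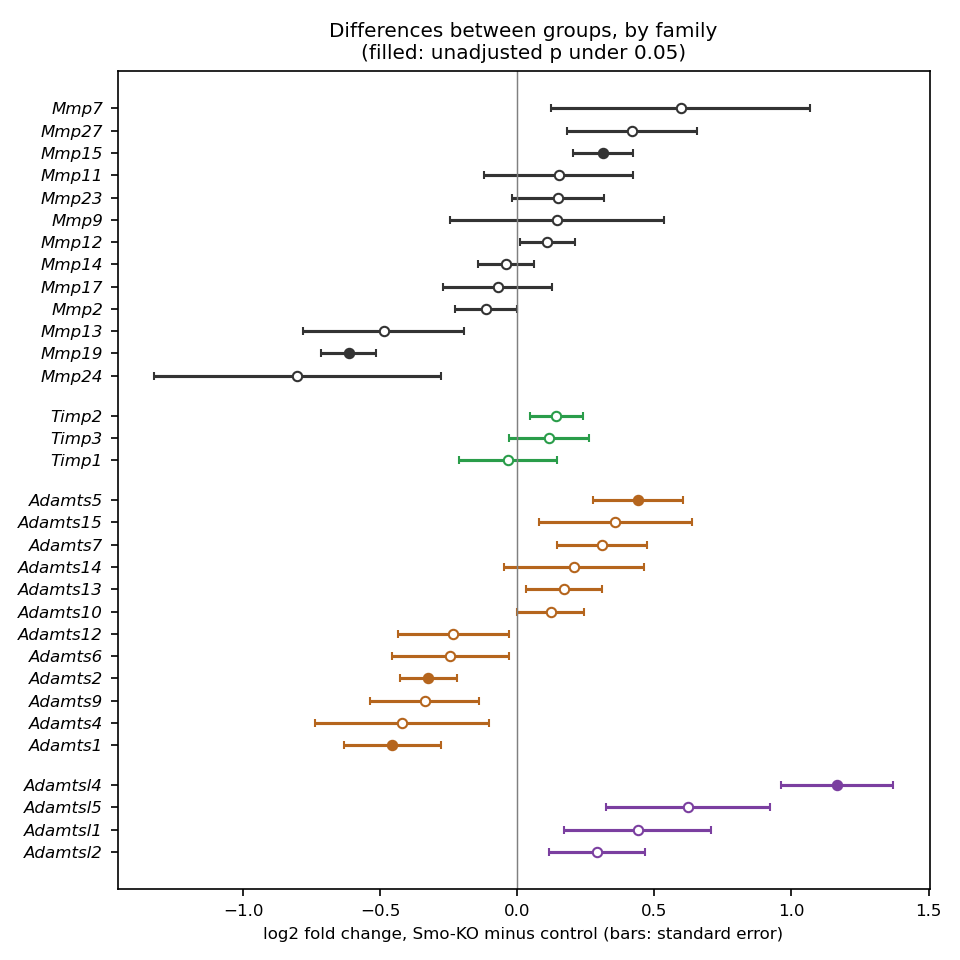
Log2 fold change (Smo-KO minus control) of each member tested with its SE from edgeR, grouped and colored by family. Filled points have an unadjusted p under 0.05; Adamtsl4 (1.17) and Mmp19 (-0.61) lie farthest from 0 relative to their standard errors.

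Adamtsl4 was the member with the largest difference. It encodes a secreted glycoprotein that binds fibrillin-1 and is best known from the fibers that hold the eye lens. It lies on the minus strand of chromosome 3 (GRCm38, chr3:95676201-95687917). Its level was 8.05, 7.34, 5.07 and 9.10 CPM in control livers 1 to 4, from 51 to 92 reads. In Smo-KO livers 1 to 4 it was 22.2, 16.6, 14.9 and 12.6 CPM, from 118 to 215 reads. The lowest Smo-KO liver lay above the highest control liver, and Smo-KO mouse 1, whose Smo level was nearest to the controls, had the highest value. The group means were 7.39 ± 1.71 and 16.6 ± 4.09 CPM (SD, n = 4 each), so that Adamtsl4 was 2.24-fold higher, and the log2 fold change was 1.17 (standard error, SE, 0.20). Its adjusted p was 0.0957 in edgeR's test, and 7 of the 12977 genes had a smaller unadjusted p. The adjusted p was 0.0463 without Smo-KO mouse 1, where the log2 fold change was 1.00. With any other mouse left out it lay between 0.0877 and 0.210 in edgeR's test. DESeq2 gave an adjusted p of 0.000142. The study labelled Adamtsl4 on a plot of these same libraries, so its place here is not independent evidence.

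Mmp19 was the member with the clearest lower level. It is a secreted metalloproteinase that cuts basement membrane proteins. Its gene lies on the plus strand of chromosome 10 (GRCm38, chr10:128790910-128800824). Its level was 52.7, 52.3, 55.6 and 51.2 CPM in control livers 1 to 4. In Smo-KO livers 1 to 4 it was 38.9, 37.3, 29.9 and 32.3 CPM. All Smo-KO livers lay below all control livers, which were close to each other. The means were 53.0 ± 1.88 and 34.6 ± 4.21 CPM (SD, n = 4 each). The log2 fold change was -0.61 (SE 0.10), which leaves 0.653 of the control level. Only 4 of the 12977 genes had a smaller unadjusted p. The adjusted p was 0.0957 in edgeR's test, 0.0266 without Smo-KO mouse 1 and 0.000250 in DESeq2's test. With any other mouse left out, edgeR's adjusted p lay between 0.0751 and 0.210. Of its merged exons, 22.3% overlap exons of Tmem198b on the opposite strand, and strand was not stated to be used in the counting. Tmem198b itself was at 2.80 ± 0.468 CPM in control and 2.66 ± 0.501 CPM in Smo-KO livers (SD, n = 4 each), far below Mmp19.

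**Figure D3:**
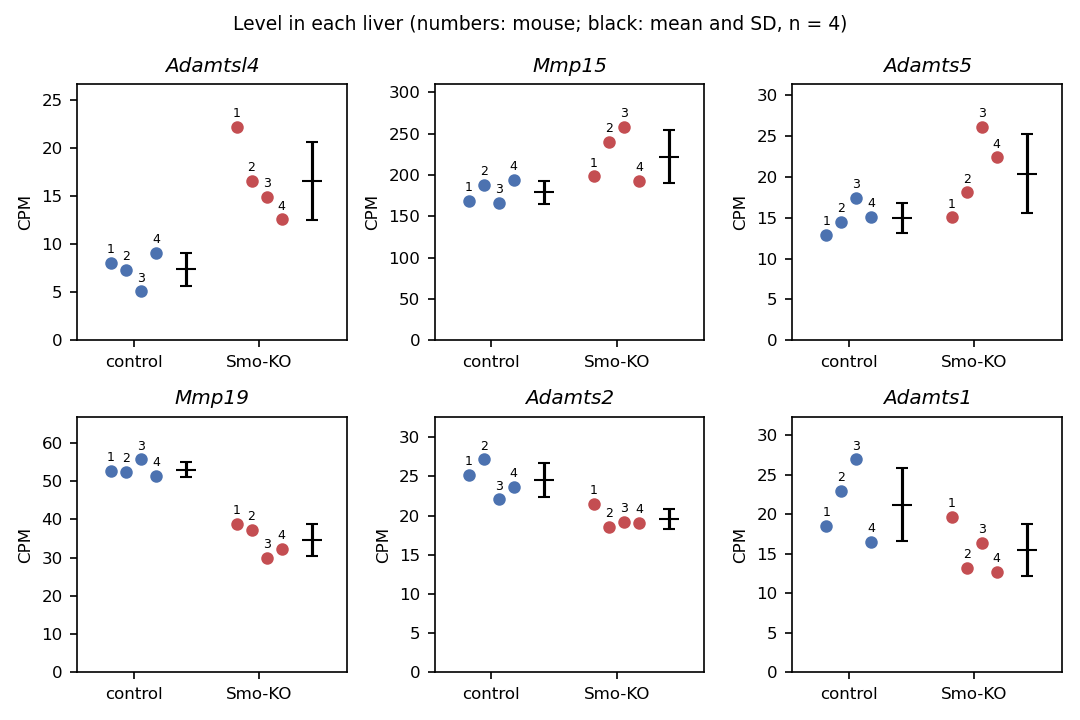
CPM in each liver, from 0, for the 6 members with an unadjusted p under 0.05, with the mouse number above each point and the mean and SD (n = 4) in black. Control and Smo-KO livers are separate for Adamtsl4, Mmp19 and Adamts2, while for Mmp15, Adamts5 and Adamts1 at least 1 liver lies within the range of the other group.

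Among the other Mmp genes, Mmp15 was somewhat higher in Smo-KO livers. It measured 169, 188, 166 and 194 CPM in control livers 1 to 4 and 198, 240, 258 and 193 CPM in Smo-KO livers 1 to 4. Smo-KO mouse 4 lay within the control range, and mice 2 and 3 well above it. The log2 fold change was 0.31 (SE 0.11), and edgeR's adjusted p was 0.247.
Mmp12 had the highest CPM of the family as a mean over the 8 livers, while in Smo-KO livers the mean of Mmp15 was higher. Mmp12 measured 185, 211, 218 and 191 CPM in control livers 1 to 4 and 225, 199, 250 and 194 CPM in Smo-KO livers 1 to 4, so that the groups overlapped widely. Its log2 fold change was 0.11 (SE 0.10). Mmp14 measured 152, 158, 172 and 160 CPM in control and 161, 129, 178 and 156 CPM in Smo-KO livers 1 to 4, with a log2 fold change of -0.04 (SE 0.10). For both genes the difference was within the spread between mice.
Mmp13 was the most uneven of the abundant proteases within a group. In control livers 1 to 4 it measured 8.96, 19.7, 28.4 and 11.3 CPM, and in Smo-KO mice 1 to 4 it measured 14.5, 9.82, 13.2 and 11.4 CPM. Control mouse 3 had the highest and control mouse 1 the lowest value of all 8 livers, so all Smo-KO livers lay inside the control range. The log2 fold change was -0.49 (SE 0.29) and moved to -0.12 without control mouse 3. It was -0.69 without control mouse 1, with an unadjusted p of 0.0187 and an adjusted p of 0.247 in edgeR's test, and -0.64 without control mouse 4 (unadjusted p 0.0480).
The gelatinases did not separate the groups. Mmp2 measured 21.5, 24.0, 20.5 and 22.4 CPM in control and 23.9, 17.8, 19.8 and 20.1 CPM in Smo-KO livers 1 to 4 (log2 fold change -0.11, SE 0.11). Mmp9 had at most 20 reads in a liver and between 0.593 and 1.99 CPM, and its log2 fold change of 0.14 had a SE of 0.39. The remaining 6 Mmp genes tested, Mmp7, Mmp11, Mmp17, Mmp23, Mmp24 and Mmp27, had unadjusted p-values from 0.101 to 0.736. Mmp24, a membrane-type protease, had the widest SE of the family (log2 fold change -0.80, SE 0.52), with 47 reads in control mouse 2 and 2 in Smo-KO mouse 4. With single mice left out the log2 fold change of Mmp24 ran from -1.31 (without Smo-KO mouse 2, unadjusted p 0.0373) to -0.43. Of its merged exons 13.6% overlap BC029722 on the opposite strand. BC029722 was more abundant than Mmp24, at 20.4 ± 3.48 CPM in control and 19.8 ± 5.14 CPM in Smo-KO livers (SD, n = 4 each), so the Mmp24 count is uncertain. Mmp27 had 4.69 ± 1.12 CPM in control and 6.25 ± 1.85 CPM in Smo-KO livers (SD, n = 4 each), a difference that ran from 0.21 to 0.57 on the log2 scale with single mice left out. Its unadjusted p was under 0.05 without control mouse 3 or Smo-KO mouse 2, with a lowest value of 0.0376.
Summed over all 23 Mmp genes, control mice 1 to 4 had 609, 678, 684 and 651 CPM and Smo-KO mice 1 to 4 had 690, 657, 772 and 630 CPM. The ratio of the means was 1.05, and 1.03 per kilobase. The lower Mmp19 and the higher Mmp15 thus stood beside a family total that was about level.

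None of the 3 Timp genes tested differed beyond the spread between mice. Timp1 measured 9.41, 13.8, 10.1 and 12.6 CPM in control livers 1 to 4 and 10.9, 7.96, 13.3 and 12.8 CPM in Smo-KO livers 1 to 4. Its log2 fold change was -0.03 (SE 0.18), and Smo-KO mouse 2 had the lowest value of all livers. Timp2, which also helps Mmp14 to activate pro-Mmp2, measured 49.9, 47.2, 43.1 and 51.0 CPM in control and 56.5, 48.5, 57.0 and 49.1 CPM in Smo-KO livers 1 to 4 (log2 fold change 0.14, SE 0.10). Timp3, which stays bound to the matrix and also blocks ADAMTS enzymes, measured 41.6, 41.9, 42.7 and 54.1 CPM in control livers 1 to 4. In Smo-KO livers 1 to 4 it measured 58.6, 35.8, 47.1 and 54.0 CPM, a log2 fold change of 0.12 (SE 0.15). Timp3 lies within Syn3, with which 21.3% of its merged exons overlap on the opposite strand, but Syn3 had at most 6 reads in a liver. Summed, the 4 inhibitors came to 105 ± 9.46 CPM in control and 113 ± 14.3 CPM in Smo-KO livers (SD, n = 4 each).

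Among the ADAMTS proteases, 3 of 12 tested had an unadjusted p under 0.05 (25.0%, against 13.8% of all genes). Adamts2, which trims the amino end of fibrillar procollagens, measured 25.2, 27.2, 22.1 and 23.6 CPM in control livers 1 to 4. In Smo-KO livers 1 to 4 it measured 21.4, 18.5, 19.1 and 19.1 CPM, each below the lowest control value. The log2 fold change was -0.32 (SE 0.10), and edgeR's adjusted p was 0.220.
Adamts1 and Adamts5, which both cut proteoglycans such as versican and aggrecan and lie near each other on chromosome 16, had differences of opposite sign. Adamts1 measured 18.5, 23.0, 26.9 and 16.5 CPM in control and 19.7, 13.2, 16.3 and 12.7 CPM in Smo-KO livers 1 to 4, with overlapping groups (log2 fold change -0.46, SE 0.18, adjusted p 0.284 in edgeR's test). Control mouse 3 was the highest, and without it the log2 fold change was -0.31 with an unadjusted p of 0.0911. The unadjusted p was also above 0.05 without control mouse 2 (0.0547), Smo-KO mouse 2 (0.0664) or Smo-KO mouse 4 (0.0714). Adamts5 measured 12.9, 14.5, 17.4 and 15.1 CPM in control and 15.1, 18.1, 26.1 and 22.4 CPM in Smo-KO livers 1 to 4 (log2 fold change 0.44, SE 0.16, adjusted p 0.270 in the same test). Smo-KO mouse 3 was the highest, and without it the log2 fold change was 0.30 with an unadjusted p of 0.0755. It was above 0.05 also without control mouse 1 (0.0528) or Smo-KO mouse 4 (0.0527). Neither difference therefore held at this threshold with every mouse left out in turn. No test was made of the difference between these genes.
The other 9 had unadjusted p-values from 0.0842 to 0.431. Adamts7, which cuts cartilage oligomeric matrix protein, measured 33.9, 25.3, 20.1 and 30.0 CPM in control and 34.7, 27.4, 30.7 and 42.2 CPM in Smo-KO livers 1 to 4 (log2 fold change 0.31, SE 0.17). With single mice left out its log2 fold change ran from 0.18 (without Smo-KO mouse 4, unadjusted p 0.286) to 0.43 (without control mouse 1, unadjusted p 0.0241). It was 0.19 without control mouse 3, and the unadjusted p was 0.0375 without Smo-KO mouse 2. Adamts13, which the liver supplies to the blood, measured 28.5, 21.5, 23.0 and 22.1 CPM in control and 32.1, 22.4, 22.8 and 29.3 CPM in Smo-KO livers 1 to 4 (log2 fold change 0.17, SE 0.14). In both genes the groups overlapped. The summed level of the 19 genes was 166 ± 8.24 CPM in control and 171 ± 17.4 CPM in Smo-KO livers (SD, n = 4 each).

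All 4 ADAMTS-like genes tested had higher means in Smo-KO livers, but Adamtsl4 alone among them had an unadjusted p under 0.05 (25.0%). Among all 12977 genes, 6470 had a positive log2 fold change, and 13.8% had an unadjusted p under 0.05 (6.7% higher) in edgeR's test. Adamtsl2, a fibrillin-binding protein known to bear on TGF-beta in the matrix, measured 29.5, 43.2, 21.7 and 37.6 CPM in control livers 1 to 4. In Smo-KO livers 1 to 4 it measured 35.7, 45.2, 43.4 and 37.4 CPM, within or little above the control range. Its log2 fold change was 0.29 (SE 0.18, adjusted p 0.485 in edgeR's test), and it ran from 0.14 without control mouse 3 (unadjusted p 0.337) to 0.45 without control mouse 2 (unadjusted p 0.0191). Adamtsl5 had from 10 to 23 reads per liver, with 1.30 ± 0.325 CPM in control and 2.01 ± 0.588 CPM in Smo-KO livers (SD, n = 4 each). Its log2 fold change was 0.62 (SE 0.30, adjusted p 0.376). The unadjusted p of Adamtsl5 went from 0.0573 to 0.0271 without control mouse 2 and to 0.0145 without Smo-KO mouse 2, and it lay between 0.0784 and 0.153 with any other mouse left out. Adamtsl1 had a log2 fold change of 0.44 (SE 0.27), from 0.21 to 0.67 with single mice left out, and an unadjusted p of 0.0344 without control mouse 4. Summed over the 5 genes, control mice 1 to 4 had 40.9, 54.8, 30.2 and 51.6 CPM and Smo-KO mice 1 to 4 had 62.6, 68.1, 64.0 and 55.9 CPM. The ratio of the means was 1.41 in CPM and 1.52 per kilobase, the largest of the 4 families, and Adamtsl2 made up 68.6% of the sum in CPM. Both Adamtsl2 and Adamtsl4 contributed to this ratio. Adamtsl2 averaged 33.0 CPM in control and 40.4 CPM in Smo-KO livers, and Adamtsl4 averaged 7.39 and 16.6 CPM.

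The livers differed among themselves without one of them leading throughout. Control mouse 3 and Smo-KO mouse 1 each had the highest value in 8 of the 32 members. Smo-KO mouse 2 had the lowest value in 8 and control mice 1 and 3 in 6 each. Control mouse 3 was highest for Mmp13, Mmp9, Adamts1 and Adamts4 and lowest for Adamtsl2 and Adamtsl4.

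**Figure D4:**
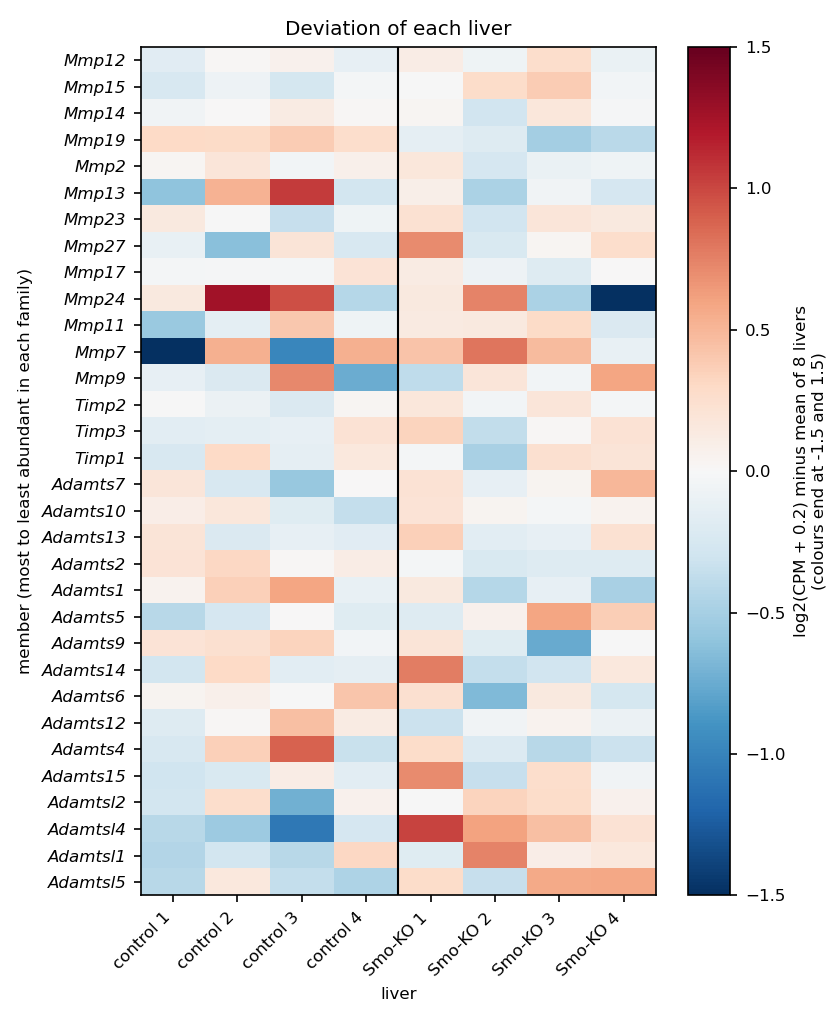
Deviation of each liver (columns, with a line between control and Smo-KO) from the mean of the 8 livers, as log2 CPM after adding 0.2, for the 32 members (rows). Blue rows on the right and red on the left, as for Mmp19, mark lower levels in Smo-KO livers; Mmp13, Mmp24 and Mmp7 vary widely within a group, and the colors end where the scale bar does.

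Genes that act on or with these proteases were read from fixed lists. Of 20 genes tested that activate or restrain matrix proteases, 2 had an unadjusted p under 0.05, both with lower levels in Smo-KO livers (a smaller share than the 13.8% of all genes). These were Thbs2, a matricellular protein that helps to clear Mmp2 (27.9 ± 3.56 against 20.4 ± 2.20 CPM, SD, n = 4 each; log2 fold change -0.46, edgeR's adjusted p 0.160), and Serpinh1, the collagen chaperone Hsp47 (log2 fold change -0.29, adjusted p 0.240). Of 10 genes tested for other matrix-acting metalloproteases and their enhancers (Pcolce and Pcolce2, which help the procollagen C-proteinase), Adam17, the TNF sheddase, alone had an unadjusted p under 0.05 (log2 fold change -0.29, adjusted p 0.266).
Of 18 matrix substrates tested, 4 were lower at an unadjusted p under 0.05 and none was higher, against 7.15% lower and 6.7% higher among all genes. Col1a1 measured 191 ± 15.5 CPM in control and 148 ± 28.7 CPM in Smo-KO livers, and Col4a2 82.8 ± 5.23 and 64.5 ± 9.84 CPM (SD, n = 4 each; log2 fold changes -0.36 and -0.36, adjusted p 0.248 and 0.205 in edgeR's test). The others were Col5a1 (-0.34, adjusted p 0.253) and Lamc1 (-0.29, adjusted p 0.263), whose values did not overlap between groups. Smo-KO mouse 2 had the lowest value of all livers for each of these genes. For Col1a1, Smo-KO mouse 4 (181 CPM) lay within the control range (179 to 213 CPM). With single mice left out, edgeR's unadjusted p reached at most 0.0413 for Col1a1 and 0.0238 for Col4a2. It reached at most 0.0499 for Col5a1 and 0.0592 for Lamc1. Of the 18, 15 had a negative log2 fold change, with a median of -0.17, beside 0.00 for all genes. Of 13 microfibril genes, partners of the ADAMTS-like proteins, 12 had a negative log2 fold change (median -0.13), and Loxl1 alone had an unadjusted p under 0.05 (-0.34, adjusted p 0.284).

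**Figure D5:**
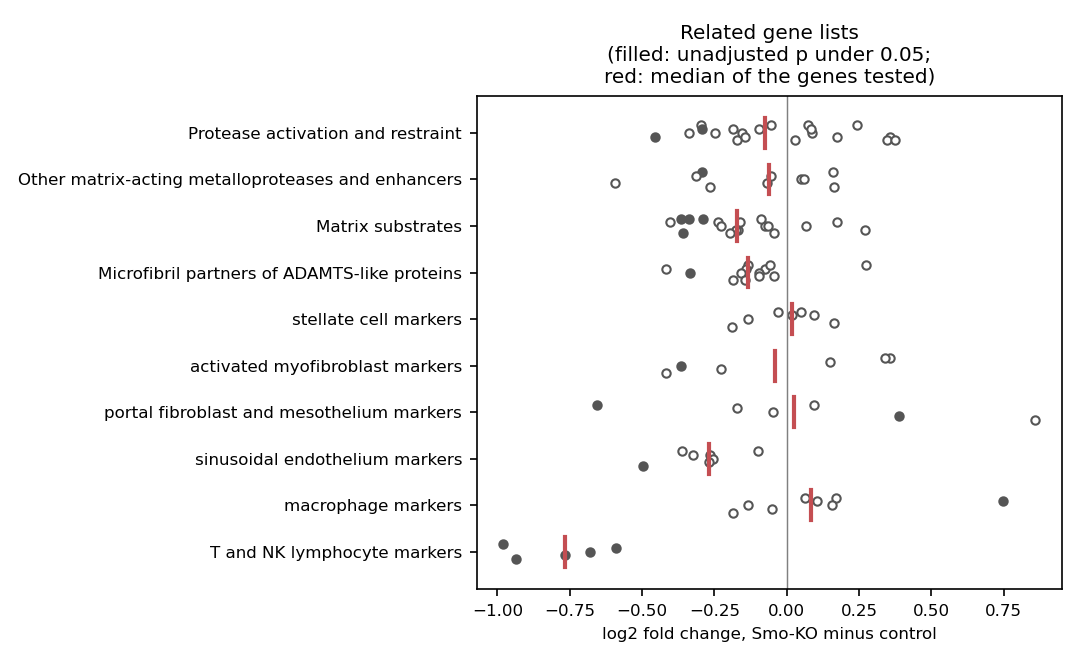
Log2 fold change (Smo-KO minus control) of each tested gene in 10 related lists, with filled points for an unadjusted p under 0.05 and a red bar at each list's median. Among the medians below 0 are those of matrix substrates (-0.17) and of T and NK lymphocyte markers (-0.77).

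Markers of cells that make these transcripts were set beside them. Among all 12977 genes, 13.8% had an unadjusted p under 0.05 in edgeR's test (6.7% higher and 7.15% lower), and 6507 had a negative log2 fold change. Stellate cell markers had 0 of 7 genes tested with an unadjusted p under 0.05 in edgeR's test (7 genes, median log2 fold change 0.02, and 0 by DESeq2's adjusted p), and summed to 364 ± 27.1 CPM in control and 368 ± 56.0 CPM in Smo-KO livers, with Ecm1 the most abundant. Macrophage markers summed to 1002 ± 112 and 1029 ± 127 CPM (SD, n = 4 each), with Clec4f the most abundant, and 1 of 8 passed. This was Trem2, a receptor of lipid-associated macrophages, which measured 33.6 ± 2.94 CPM in control and 56.5 ± 9.70 CPM in Smo-KO livers (log2 fold change 0.75, edgeR's adjusted p 0.0957, DESeq2's 0.000156), with no overlap between groups. Markers of sinusoidal endothelium were lower in 7 of 7 genes by their means (median log2 fold change -0.27). Only Pecam1 had an unadjusted p under 0.05 in edgeR's test with all 8 livers, and this count depended on single mice. With single mice left out, the p ran from 0.0015 to 0.0753 for Pecam1 and from 0.0010 to 0.266 for Cdh5. The log2 fold change of Cdh5 ran from -0.63 to -0.22. The lowest p was 0.0084 for Gpr182, 0.0087 for Kdr and 0.0354 for Clec4g, while Stab2 and Lyve1 stayed above 0.05. The 7 endothelial markers summed to 193, 178, 216 and 219 CPM in control and 232, 110, 139 and 183 CPM in Smo-KO livers 1 to 4, with Clec4g the most abundant.
Of the marker lists, that of T and NK lymphocytes had the median farthest from 0. Of its 7 genes 5 could be tested, and all 5 had lower means with an unadjusted p under 0.05 (Cd8a, Nkg7, Cd3e, Cd3g and Cd3d; median log2 fold change -0.77, adjusted p 0.116 to 0.292 in edgeR's test). DESeq2 gave 3 of them an adjusted p under 0.05 (Nkg7 0.0121, Cd8a 0.0143 and Cd3e 0.0399). Over all genes, 7.15% were lower at edgeR's unadjusted p under 0.05 and 0.702% at DESeq2's adjusted p under 0.05. Summed over the 7 genes, they came to 47.5, 43.8, 38.9 and 53.5 CPM in control livers 1 to 4 and 21.2, 19.2, 32.6 and 31.3 CPM in Smo-KO livers 1 to 4, with Nkg7 the most abundant. Klrb1c and Gzma had at most 6 reads in a liver, and Klrb1c had none in Smo-KO mouse 4. The groups did not overlap in this sum. The part of lymphocytes, endothelium or Trem2-positive macrophages in the levels of Mmp19, Adamts2 or Adamtsl4 was not tested. Of 7 neutrophil markers, S100a8 and S100a9 had enough reads to test and the other 5 had at most 13 reads in a liver, Ly6g none, with a sum of 11.4 ± 4.15 CPM in control and 10.2 ± 1.15 CPM in Smo-KO livers (SD, n = 4 each; S100a9 the most abundant), beside the low Mmp8 and Mmp9.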

How the data were processed

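The authors deposited, for each liver, a list of gene symbols with whole-number read counts, without normalization. The submitters' processing notes name fastp, STAR 2.7.5, featureCounts 2.0.1 and the build GRCm38, while the closing entries of the lists have the form of htseq-count. The annotation and strand setting are not given in the sources used here. Reads on no gene (8.33% ± 0.743 in control and 9.23% ± 0.330 in Smo-KO livers, SD, n = 4) and on more than 1 gene (2.55% and 2.51%) were left out.

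The test was edgeR's (version 4.0.16, under R 4.3.3). Genes were kept by filterByExpr, libraries were scaled by TMM, and genotype was the single term of glmQLFit and glmQLFTest. P-values were adjusted by Benjamini-Hochberg over the 12977 genes kept. Standard errors are those implied by the F statistic. DESeq2 1.42.0 was an alternative. No chi-square of counts between livers of 1 group was under 7.76 per degree of freedom, so no library was a copy of another of its group. Exon lengths and positions came from GENCODE M21 (all 51 members matched), promoters from RefSeq GRCm38.p6. The test was tried on simulated counts first. Counting error is the only error that depth describes, since molecular identifiers are not given.

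Chosen for description per liver were members with an unadjusted p under 0.05 or groups that did not overlap, the 3 of each family with the highest level per kilobase, and 8 members known in liver fibrosis (Mmp2, Mmp9, Mmp12, Mmp13, Mmp14, Timp1, Adamts1 and Adamtsl2). Of these, Mmp9 was given only as a range and Adamtsl5 only as mean and SD. Of related lists, genes with an unadjusted p under 0.05 were named, at most the 4 with the smallest p. Members, lists and tests were chosen with earlier results of these data known. Outside the rule, Mmp24, Mmp27, Adamtsl1, Adamts4, Adamts10, Adamts14, Mmp17, Cd3d, other myofibroblast, endothelial and neutrophil markers and genes with overlapping exons were named after their values were seen. Marker lists of portal fibroblasts, myofibroblasts and muscle are given at the end, and 1 further marker list is not reported here. Alternatives were other scalings (RLE, upper quartile), DESeq2, no filter, a minimum of 10 counts in all libraries, a block for replicate number, leaving out single mice, and sums per kilobase.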

Additional observations from a re-analysis of the deposited data

Results flagged for a closer look

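In 5 of the 64 groups of 4 livers examined (32 members in control and in Smo-KO livers), 1 liver stood far from the other 3 by Dixon's criterion, where chance gives about 3.2. Control mouse 4 had 54.1 CPM of Timp3, against 41.6 to 42.7 CPM in the other controls, 7.12 CPM of Adamts6, against 5.27 to 5.56 CPM, and 2.97 CPM of Mmp17, against 2.48 to 2.52 CPM. Control mouse 2 had 1.78 CPM of Adamtsl5, from 17 reads, against 1.09 to 1.19 CPM. Smo-KO mouse 2 had 6.00 CPM of Mmp23, a membrane-anchored protease, against 8.21 to 8.66 CPM in the other Smo-KO livers.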

How the results depend on the processing

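How many genes reached an adjusted p under 0.05 differed between tests. edgeR's test gave 0, also with RLE or upper-quartile scaling or a minimum of 10 counts in all libraries. DESeq2 gave 163, edgeR without a filter 61, a block for replicate number 8, and leaving out single mice from 0 to 78 (78 for Smo-KO mouse 1, 5 for control mouse 1, 4 for Smo-KO mouse 3). Among members it was 2 (Adamtsl4 and Mmp19) with DESeq2 and with no filter, 0 with the block and from 0 to 2 with each mouse left out, the 2 being the same genes without Smo-KO mouse 1. The count of members with an unadjusted p under 0.05 was between 4 and 9 in these fits, and Adamtsl4, Mmp19, Adamts2 and Mmp15 were among them in all 14. The members Mmp14, Timp1, Mmp9, Adamts14 and Mmp17, whose differences were within the spread, changed sign when a mouse was left out. Their log2 fold changes ran from -0.110 to 0.0393 for Mmp14, from -0.12 to 0.10 for Timp1, from -0.0864 to 0.574 for Mmp9, from -0.09 to 0.35 for Adamts14 and from -0.13 to 0.00 for Mmp17. The cause of these changes was not tested. Whether equal mouse numbers mark a shared litter or day is not given. The livers' deviations from the group means correlated by 0.10, 0.19, 0.06 and 0.11 for mice 1 to 4, not above 0.1 in every pair, so the numbers were not taken as pairs. With the replicate block 8 members had an unadjusted p under 0.05, with Adamts7 and Mmp24 added. Over all genes the median log2 fold change stayed within 0.1 of 0 in each of these fits. Mmp7, Mmp9 and Adamtsl5 had at most 23 reads in a liver, which limits the precision of their values.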

Other observations

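The summed markers of 3 further cell types overlapped between the groups. Activated myofibroblast markers summed to 661 ± 34.5 CPM in control and 576 ± 98.4 CPM in Smo-KO livers (SD, n = 4 each), with Col3a1 the most abundant, and 1 of 6 genes tested, Col1a1, was lower at an unadjusted p under 0.05 in edgeR's test. The log2 fold change was negative in 3 of the 6 and positive in the others, Acta2 (0.36), Postn (0.34) and Tagln (0.15). With single mice left out, it ran from 0.09 to 0.53 for Acta2 and from 0.20 to 0.46 for Postn. In these fits edgeR's unadjusted p ran from 0.0254 to 0.656 for Acta2 and from 0.0146 to 0.210 for Postn. Portal fibroblast and mesothelium markers summed to 231 ± 31.1 and 228 ± 27.4 CPM, with Gas6 the most abundant. Of these 6 genes tested, Thy1, a surface glycoprotein of portal fibroblasts and T cells, was lower (12.7 ± 2.50 against 8.04 ± 2.08 CPM, adjusted p 0.205 in edgeR's test) and Entpd2 higher (22.4 ± 0.490 against 29.3 ± 5.08 CPM, adjusted p 0.217), with no overlap between groups for Entpd2. Muscle markers, with Acta1 the most abundant, summed to 1.36 ± 1.08 CPM in control and 0.323 ± 0.168 CPM in Smo-KO livers, with none of 5 abundant enough to test, and Myh1 and Myh4 had no read. Among 8 hepatocyte markers, 1 had an unadjusted p under 0.05, a share of 12.5% beside 13.8% of all genes, and 3 had a positive log2 fold change. The 1 was Cps1, an enzyme of the urea cycle, which had a lower level in Smo-KO livers with no overlap between groups (919 ± 50.6 against 733 ± 94.0 CPM, SD, n = 4 each; adjusted p 0.218 in the same test).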
